A study of Mus musculus with 6 samples.

Results

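The imprinted *H19*-*Igf2* locus and the genes whose products bind IGF2 or its mRNA were followed in advanced embryonic stem cells (ASCs) with and without *Bdh2*. They are 8 of the 54715 genes in the count table, namely *H19*, *Igf2*, *Ins2*, the receptors *Igf2r* and *Igf1r*, and the mRNA-binding proteins *Igf2bp1*, *Igf2bp2* and *Igf2bp3*. These genes were selected on the measured difference between the genotypes, so their values in this contrast are a description and carry no test. All 8 were found in the table, and 7 of them passed the filter on low counts that left 16758 genes for testing. *Ins2* had 0 counts in every library and did not pass.

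ASCs are mouse embryonic stem cells kept in an advanced pluripotent state. Both genotypes came from a cross of a 129/sv female with a GOF/GFP male, carried a GFP reporter driven by the *Oct4* promoter, and grew on fibronectin with leukemia inhibitory factor, activin A, BMP4 and CHIR99021. The groups were wild-type (WT) ASCs, in 3 replicates, and *Bdh2*-knockout ASCs, also in 3, labelled Bdh2-/-, in which CRISPR/Cas9 had left a bi-allelic deletion near the start codon. Libraries are named here by genotype and replicate number. The knockout line was 1 clone, so its genotype and its clonal history cannot be told apart. The labels do not say whether replicates were separate cultures, and the spread and the p-values then cover only these libraries.

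Libraries held 18927748 to 28333541 counts on genes, so that 3 counts corresponded to 0.109 to 0.155 CPM (counts over the TMM-scaled library size), which covers counting error only. *Bdh2* reads numbered 203, 193 and 209 in the WT libraries and 164, 136 and 129 in the knockout libraries, whose mean level was 57.7% of WT (log2 fold change -0.79 ± 0.12 SE, adjusted p = 2.455e-04, edgeR). Of 10 markers of pluripotent cells, 6 rose and 1 fell, and their summed level was 7014 to 7271 CPM in WT ASCs and 7336 to 7380 CPM in *Bdh2*-knockout ASCs. All 14 markers of primitive endoderm rose, from a summed 370 to 411 CPM in WT ASCs to 905 to 997 CPM in *Bdh2*-knockout ASCs. Hepatocyte transcripts were present in uneven amounts, at a summed 616, 383 and 60.3 CPM in WT libraries 1 to 3 and 50.6, 182 and 35.8 CPM in knockout libraries 1 to 3, and 15 of 18 of them passed the test as lower in edgeR but 0 did in DESeq2 or limma-voom. Reads were not split by allele, and in bulk RNA fewer cells of a type and less RNA per cell cannot be told apart.

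IGF2 is a growth factor of the embryo that signals through the tyrosine kinase receptor IGF1R, whereas IGF2R, the mannose 6-phosphate receptor, takes IGF2 up for degradation in lysosomes and does not signal growth. *H19* is a long non-coding RNA made from the maternal chromosome and *Igf2* is transcribed from the paternal one, and an imprinting control region between them, methylated on the paternal copy and bound by CTCF on the maternal copy, sets which of the genes reaches the shared enhancers. Where *Igf2r* is imprinted, it is so in the opposite sense, with its paternal copy silenced by the antisense RNA *Airn*. Whether it is imprinted in these ASCs was not tested, since reads were not split by allele. The IGF2BP proteins bind *Igf2*, *H19*, *Myc* and many other mRNAs and affect their stability and translation.

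On GRCm38, *H19* (ENSMUSG00000000031) occupies chr7:142575529-142578143 on the minus strand as a lincRNA gene with up to 5 exons. *Igf2* (ENSMUSG00000048583) lies 72.6 kb further along at chr7:142650766-142666816 on the same strand, and *Ins2* (ENSMUSG00000000215) follows 11.8 kb beyond it at chr7:142678656-142743381. The microRNA gene *Mir675* lies inside the exonic sequence of *H19*, at chr7:142577064-142577147 on the minus strand. Its hairpin is present in 3 of 7 annotated *H19* transcripts and begins at base 997 of the 2286 bases of H19-202. The hairpin is shown because it is the product that *H19* RNA carries, with the mature microRNAs in capitals. The mature sequences, from RefSeq on GRCm38.p6, are shown with the seed (bases 2 to 8) in capitals.
Mir675 hairpin: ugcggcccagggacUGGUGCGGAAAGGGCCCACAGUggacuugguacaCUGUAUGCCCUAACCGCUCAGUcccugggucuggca
miR-675-5p: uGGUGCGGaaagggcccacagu
miR-675-3p: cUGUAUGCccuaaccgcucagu
The seeds of the 5p and 3p arms differ. *Mir675* itself had 0 counts in every library. All 84 bases of its hairpin are covered by *H19* exons, and the counting does not separate the hairpin from its host RNA.

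*H19* was higher in *Bdh2*-knockout ASCs. It was counted 1052, 1272 and 1333 times in WT libraries 1 to 3, which is 54.2, 63.0 and 52.8 CPM. In knockout libraries 1 to 3 it was counted 7991, 7292 and 6434 times, or 290 (replicate 1), 267 (replicate 2) and 268.5 CPM (replicate 3). All 3 knockout libraries stood far above all 3 WT libraries, and the groups did not overlap. The mean was 56.6 ± 5.55 CPM in WT ASCs and 275 ± 12.8 CPM in *Bdh2*-knockout ASCs (SD, n = 3 each), for a log2 fold change of 2.28 ± 0.07 (SE) or 4.86-fold. Of the 16758 tested genes, 30 had a higher log2 fold change. Per length, *H19* moved from rank 2430 of the tested genes in WT ASCs to rank 441 in *Bdh2*-knockout ASCs. The higher *H19* level went together with the higher primitive endoderm markers given above, and their part in it was not tested.

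*Igf2* went the other way. WT libraries 1 to 3 held 200, 328 and 361 reads of it, or 10.3, 16.2 and 14.3 CPM, and knockout libraries 1 to 3 held 89, 73 and 77 reads, or 3.23, 2.68 and 3.21 CPM. The lowest WT library was above the highest knockout library. The means were 13.6 ± 3.03 and 3.04 ± 0.31 CPM (SD, n = 3 each), so that the knockout level was 22.3% of WT, with a log2 fold change of -2.17 ± 0.17 (SE). Of all tested genes, 73 had a lower one. WT library 1, with the most hepatocyte transcripts, had the lowest *Igf2* level in WT, and WT library 2, with the next most, had the highest. The part of hepatocyte transcripts in the *Igf2* level was not tested. With the 3 libraries richest in them left out, the log2 fold change was -2.15. That alternative was chosen after seeing the data and leaves 1 WT library, which is assumed to vary like the others.

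*Ins2*, which encodes insulin 2 and is expressed mainly in pancreatic beta cells, had 0 counts in each of the 6 libraries, which allows a level of up to 0.109 to 0.155 CPM depending on the library. Its paralog *Ins1* was also at 0. Of 8 beta cell markers, 2 could be tested, of which 0 passed at an adjusted p under 0.05 in edgeR, DESeq2 or limma-voom and 1, *Mafa* (named after its value was seen), was lower at an unadjusted p under 0.05, whereas *Ins1*, *Iapp* and *G6pc2* were at 0 in all libraries.

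**Figure D1:**
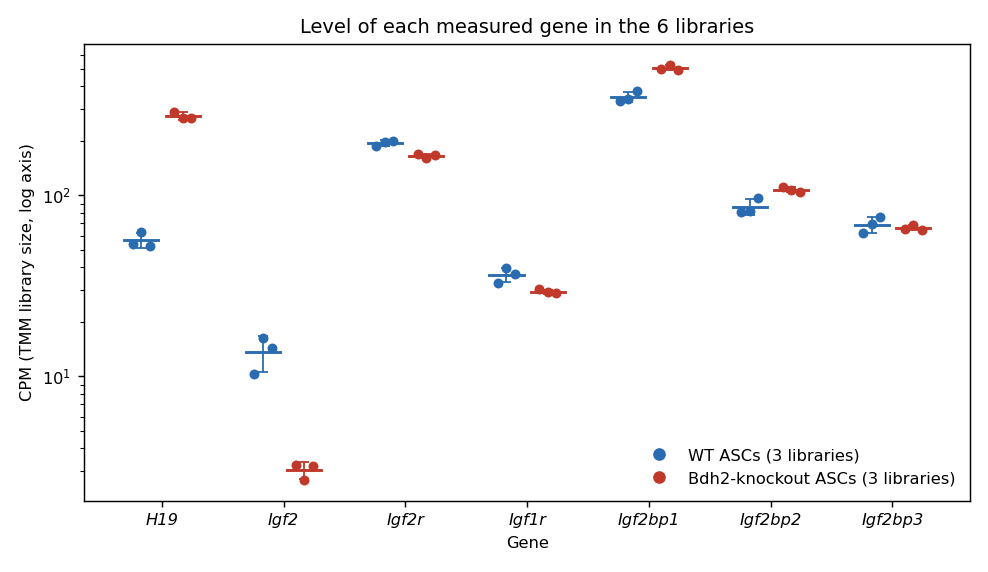
Level of the 7 measured genes on a log axis, in CPM of the TMM-scaled library, with 1 point per library, the mean as a line and the SD as a bar. *H19* sits at 52.8 to 63.0 CPM in WT and 267 to 290 CPM in *Bdh2*-knockout ASCs, *Igf2* at 10.3 to 16.2 and 2.68 to 3.23 CPM, and *Igf2bp3* is the gene whose groups overlap. *Ins2*, at 0 in all libraries, is not drawn.

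Because both genes were read from the same library, their ratio needs no scaling. WT libraries 1 to 3 held 5.26, 3.88 and 3.69 *H19* reads for each *Igf2* read, and knockout libraries 1 to 3 held 89.8, 99.9 and 83.6. The means were 4.28 ± 0.86 and 91.1 ± 8.24 reads (SD, n = 3 each), a ratio of 21.3 between the genotypes. No WT library came near the lowest knockout library.

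How reads were shared out among overlapping genes bears on the *Igf2* level. Of the 5723 exon bases of *Igf2*, 64.5% are also exons of another gene, 3596 bases of them of the same-strand gene *Gm49394*, whose own exons are wholly covered by those of *Igf2* and *Igf2os*. *Gm49394* had 0 counts in every library. Over the listed length *Igf2* was at 2.38 ± 0.53 FPKM (CPM per kilobase of gene length) in WT ASCs and 0.531 ± 0.055 FPKM in *Bdh2*-knockout ASCs. Over the 2029 bases that no other gene shares, a scale added after seeing the data, these levels were 6.71 ± 1.49 and 1.498 ± 0.155 FPKM (SD, n = 3 each). The levels depend on that choice. The ratio between genotypes is the same on either scale by construction, since the same counts were divided by another length. Whether the sharing of reads affected that ratio was not tested.

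The RefSeq start-site table (GRCm38.p6) holds 4 windows for *Igf2*, each of 300 bases around a start. The most downstream one, at chr7:142657447-142657746 on the minus strand, is shown as an example of a start of the gene with the lower level in *Bdh2*-knockout ASCs, and the data do not say which start was used. The capitals mark the GC box GGGCGG (or CCGCCC on the other strand), of which it holds 2, the most of the 4 windows, beside 1, 0 and 0 in the others. That motif is present in 35.7% of the 32851 windows of this length.
Igf2 start window: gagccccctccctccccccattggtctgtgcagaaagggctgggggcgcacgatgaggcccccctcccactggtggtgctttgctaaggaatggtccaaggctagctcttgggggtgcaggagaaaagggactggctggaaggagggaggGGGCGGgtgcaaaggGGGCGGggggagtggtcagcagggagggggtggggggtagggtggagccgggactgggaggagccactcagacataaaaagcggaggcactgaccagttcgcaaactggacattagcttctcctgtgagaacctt
A match of letters is a description of the window only.

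Among the neighbours of *H19* and *Igf2*, lower levels were the more frequent. Of 58 other genes that start within 500 kb of the pair, 13 could be tested, and 1 rose and 8 fell at an adjusted p under 0.05 in edgeR. Over all tested genes 21.0% rose and 20.8% fell. The median log2 fold change of the 13 neighbours was -0.30, beside -0.01 over all tested genes. The antisense gene *Igf2os*, which starts 81.5 kb from *H19* and overlaps *Igf2*, had 49, 60 and 53 counts in the WT and 24, 27 and 24 counts in the knockout libraries, a log2 fold change of -1.40 ± 0.23 (SE, adjusted p = 3.578e-04). Of its exon bases 23.2% are also exons of *Igf2* or *Gm49394*, on the opposite strand. The sources used here do not say whether counting used strand, so reads of the antisense pair cannot be told apart.

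On the other side of *H19*, *Mrpl23*, which encodes a mitochondrial ribosomal protein and starts 45.5 kb away, fell by 0.29 ± 0.05 on the log2 scale. *Lsp1*, a lymphocyte actin-binding protein gene at 28 to 39 counts in WT and 17 to 26 in knockout libraries, had a log2 fold change of -1.02. Its adjusted p was 0.0108, and 0.0585 without WT library 2 or 0.0502 without knockout library 1. *Dusp8*, a dual-specificity phosphatase gene, fell by 1.02 ± 0.20, and the antisense gene *Tspan32os* by 1.21 ± 0.33. With the 3 libraries richest in hepatocyte transcripts left out, the log2 fold change was -0.97 for *Tspan32os* and -0.98 for *Lsp1* and the adjusted p 0.163 and 0.115, with fewer libraries in the fit, and with the hepatocyte score (mean log2 CPM of the hepatocyte markers) as a covariate *Lsp1* was at -0.78 with an adjusted p of 0.0955. *Ctsd*, the lysosomal protease cathepsin D, was the neighbour that rose, by 0.25 ± 0.05 on the log2 scale (adjusted p = 0.00199). The tetraspanin gene *Cd81* had a log2 fold change of -0.18, and its adjusted p of 0.00741 became 0.0558 without knockout library 3. For *Gm45889*, at 7 to 26 counts, the log2 fold change was -1.30 and the adjusted p 0.0201, which became 0.125 without WT library 3, 0.0793 without knockout library 1, 0.0742 without knockout library 2 and 0.0634 in DESeq2. *Ascl2*, a trophoblast transcription factor gene, had a log2 fold change of -0.30 at an adjusted p of 0.0493, and that p was above the threshold, between 0.0662 and 0.241, without any 1 library other than WT library 1, and also in DESeq2 (0.0945), with median-of-ratios size factors (0.0527) and without a filter on low counts (0.0629). Without WT library 3 its log2 fold change was -0.17. Unlike the other genes of this paragraph, *Tspan32os*, *Cd81* and *Ascl2* start on the *Igf2* side of *H19*.

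A list of 29 genes covered the wider distal chromosome 7 imprinted domain. Of 20 that could be tested, 1 rose and 12 fell in edgeR (2 and 10 in DESeq2), and the median log2 fold change was -0.24. The edgeR shares were 5.0% and 60.0%, beside 21.0% and 20.8% over all tested genes. The list is not separate from the neighbours above, since it has *Igf2os*, *Lsp1*, *Mrpl23*, *Cd81*, *Ascl2* and *Ctsd* in common with them. *Cdkn1c*, a maternally expressed inhibitor of the cell cycle, went from 18.1 ± 1.57 to 10.7 ± 0.72 CPM (SD, n = 3 each, log2 fold change -0.76 ± 0.09, adjusted p = 2.623e-05). *Slc22a18*, a maternally expressed transporter, went from 13.7 ± 0.95 to 6.98 ± 0.66 CPM (log2 fold change -0.97 ± 0.10, adjusted p = 1.067e-05).

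**Figure D2:**
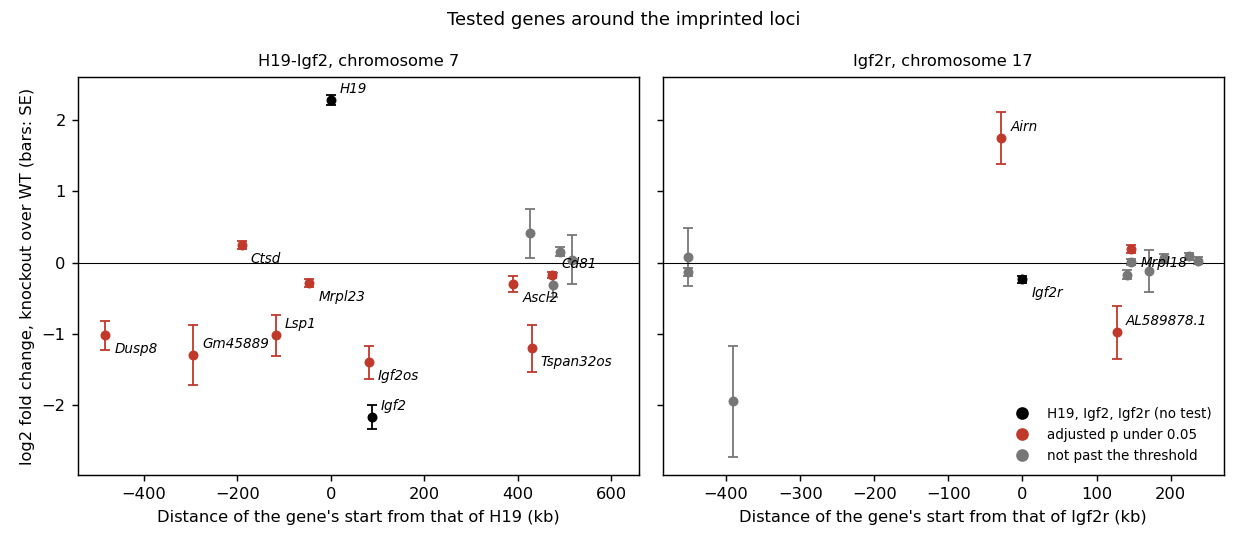
Log2 fold change (edgeR, bars: SE) of the tested genes around *H19* and *Igf2* (left) and around *Igf2r* (right) against the distance of each gene's start in kb, with larger coordinates to the right. Black points carry no test, red ones passed an adjusted p of 0.05 and grey ones did not. *H19* at 2.28 and *Igf2* at -2.17 lie at the extremes of the left panel, where 8 of the 13 neighbours fell, and on the right *Airn* at 1.75 stands above *Igf2r* at -0.24.

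The receptor *Igf2r* (ENSMUSG00000023830, chr17:12682406-12769664, minus strand, up to 48 exons) was at 187, 198 and 201 CPM in WT libraries 1 to 3 and at 170 (replicate 1), 161 and 166 CPM in knockout libraries 1 to 3. The lowest WT library was above the highest knockout library. The difference was small, with means of 195 ± 7.36 and 166 ± 4.52 CPM (SD, n = 3 each) and a log2 fold change of -0.24 ± 0.05 (SE). A larger absolute difference was found for 49.7% of all tested genes.

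*Airn* (ENSMUSG00000078247, chr17:12741311-12860136, plus strand) starts inside *Igf2r* and overlaps it over 28354 bases, though 0% of its exon bases are exons of *Igf2r*. It was counted 7, 14 and 7 times in WT libraries 1 to 3 and 48, 32 and 36 times in knockout libraries 1 to 3. *Airn* thus rose, with a log2 fold change of 1.75 ± 0.36 (SE, adjusted p = 0.00151), from a mean of 0.444 ± 0.220 CPM in WT ASCs to 1.47 ± 0.29 CPM in *Bdh2*-knockout ASCs (SD, n = 3 each). There were 518, 286 and 725 *Igf2r* reads for each *Airn* read in WT libraries 1 to 3 and 97.5, 137 and 111 in knockout libraries 1 to 3, without overlap. The start windows of this overlapping pair are shown because their levels differed in opposite directions. Capitals mark the E-box CACGTG (in 7.15% of all windows, the same on both strands), the GC box GGGCGG or CCGCCC, and the TATA box TATAAA or TTTATA (in 13.6% of all windows). In the *Igf2r* window 2 E-boxes and 3 GC boxes were found, of which 2 GC boxes abut each other, and in the *Airn* window 1 GC box and 1 TATA box. The windows are chr17:12769657-12769956 on the minus strand for *Igf2r* and chr17:12741061-12741360 on the plus strand for *Airn*.
Igf2r start window: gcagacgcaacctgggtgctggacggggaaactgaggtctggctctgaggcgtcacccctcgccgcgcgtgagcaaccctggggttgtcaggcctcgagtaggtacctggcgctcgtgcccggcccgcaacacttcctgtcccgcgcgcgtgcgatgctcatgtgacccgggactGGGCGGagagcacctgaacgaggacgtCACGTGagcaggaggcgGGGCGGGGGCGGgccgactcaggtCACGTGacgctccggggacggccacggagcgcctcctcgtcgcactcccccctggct
Airn start window: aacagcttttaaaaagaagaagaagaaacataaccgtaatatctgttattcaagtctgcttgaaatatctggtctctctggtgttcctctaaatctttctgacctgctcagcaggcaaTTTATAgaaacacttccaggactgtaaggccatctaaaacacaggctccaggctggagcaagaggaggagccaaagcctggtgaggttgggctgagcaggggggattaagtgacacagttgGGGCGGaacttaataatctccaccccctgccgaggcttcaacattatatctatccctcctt
The *Igf2r* window had 70.7% G and C bases and the *Airn* window 45.7%.

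The surroundings of *Igf2r* were counted in the same way. Of 42 other genes starting within 500 kb, 12 could be tested, of which 2 rose (*Airn* and *Mrpl18*) and 1 fell. Their median log2 fold change was 0.02. Over all tested genes 21.0% rose and 20.8% fell. *Mrpl18*, a mitochondrial ribosomal protein gene, rose by 0.19 ± 0.05 on the log2 scale, but its adjusted p was 0.0546 with library totals in place of TMM and 0.117 with the hepatocyte score as a covariate. *AL589878.1*, at 10 to 28 counts, had a log2 fold change of -0.98 at an adjusted p of 0.0474. Without WT library 1 or 2 or knockout library 1 or 2 its adjusted p was 0.113, 0.188, 0.180 and 0.134, and it was 0.0839 in DESeq2, 0.221 with the hepatocyte score and 0.727 without the 3 libraries richest in hepatocyte transcripts (log2 fold change -0.33). In a list of 11 genes of the *Igf2r* imprinted domain 7 could be tested, of which *Airn* rose and 0 fell in edgeR. DESeq2 and limma-voom also called 0 of them lower. At an unadjusted p under 0.05 the count of lower genes was 2, both named after their values were seen, *Map3k4* at a log2 fold change of -0.14 and *Plg* at -1.95, a liver gene that followed the hepatocyte transcripts at 131, 71 and 9 counts in WT and 9, 55 and 7 counts in *Bdh2*-knockout ASCs.

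*Igf1r* (ENSMUSG00000005533, chr7:67952827-68233668, plus strand, up to 21 exons), the receptor that signals for both IGF1 and IGF2, was at 33.0, 39.5 and 36.8 CPM in WT libraries 1 to 3 and at 30.2, 29.2 and 28.8 CPM in knockout libraries 1 to 3. The groups did not overlap, but WT library 1 stood close to the knockout libraries. The means were 36.4 ± 3.28 and 29.4 ± 0.72 CPM (SD, n = 3 each), with a log2 fold change of -0.31 ± 0.07 (SE). Per length the FPKM of *Igf2r* was 10.2, 9.05 and 9.84 times that of *Igf1r* in WT libraries and 10.1, 9.93 and 10.4 in knockout libraries. The ranges of this ratio overlapped between the genotypes.

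Around these receptors, the genes that bind or release IGFs were listed as well. Of 19 ligands, receptors, binding proteins and proteases, 15 could be tested. Of these, 2 (13.3%) rose and 6 (40.0%) fell, beside 21.0% and 20.8% over all tested genes. Their median log2 fold change was -0.34. *Igfbp3*, the main carrier of IGFs in blood, went from 11.2 ± 1.38 to 25.6 ± 0.95 CPM (SD, n = 3 each, log2 fold change 1.18 ± 0.09, adjusted p = 5.713e-07). *Htra1*, a secreted protease that cleaves IGF-binding proteins, went from 7.88 ± 0.33 to 17.4 ± 1.45 CPM (log2 fold change 1.14 ± 0.09, adjusted p = 1.13e-06). *Igfbp5* fell from 9.51 ± 1.82 to 4.65 ± 0.35 CPM (log2 fold change -1.03 ± 0.14, adjusted p = 1.088e-04). *Igfbp4* fell from 17.6 ± 2.28 to 11.4 ± 2.07 CPM, and *Igfbp2*, by far the most abundant of the binding proteins, from 553 ± 35.9 to 443 ± 24.9 CPM. The log2 fold change of *Igfbp4*, -0.62, was -0.38 with the hepatocyte score as a covariate. *Insr*, the insulin receptor, fell from 27.8 ± 2.32 to 21.1 ± 0.92 CPM (log2 fold change -0.39 ± 0.07, adjusted p = 8.551e-04).

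The call of 2 genes of this list was lost under several alternatives. *Igfals*, the acid-labile subunit that stabilizes IGF complexes in blood, had a log2 fold change of -0.50 and an adjusted p of 0.0208, which became 0.0569 without WT library 1, 0.0512 without WT library 2 and 0.0959 without knockout library 1 (log2 fold change -0.33), and was 0.0571 with the hepatocyte score as a covariate and 0.0715 without the 3 libraries richest in hepatocyte transcripts. *Stc1*, a stanniocalcin that inhibits the protease PAPP-A, had one of -0.74 and an adjusted p of 0.0427, which became 0.0646 and 0.168 without WT libraries 1 and 2 and 0.0501 and 0.113 without knockout libraries 1 and 2, and was 0.455 without the 3 libraries richest in hepatocyte transcripts. The log2 fold change of *Stc1* was -0.41 without knockout library 2 and -0.24 without those 3 libraries.

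The remaining genes of this list did not pass the test. *Igf1* was counted 24, 26 and 0 times in WT libraries 1 to 3 and 13, 21 and 7 times in knockout libraries 1 to 3, highest in the libraries with most hepatocyte transcripts. Its log2 fold change of -0.63 had an adjusted p of 0.508, which became 0.0190 without WT library 3. *Igfbp1*, another liver gene, had 12, 8 and 0 counts in WT and 1, 3 and 0 counts in *Bdh2*-knockout ASCs, too few to test. The part of hepatocyte transcripts in both was not tested. *Pappa*, the protease PAPP-A, was not tested either, at 1, 3 and 1 counts against 10, 15 and 10, and *Pappa2* did not exceed 1 count in any library. *Stc2* at -0.20, *Igfbp6* at -0.50, *Igfbp7* at 0.13, *Igfbpl1* at 0.07, *Insrr* at 0.32 and *Pcsk4*, a protease that processes pro-IGF2, at -0.34 on the log2 scale had adjusted p values from 0.107 to 0.802. For *Pcsk4* it was 0.0376 without knockout library 3. For *Stc2* it was 0.0126 without a filter on low counts and 0.0226 with the hepatocyte score as a covariate, where its log2 fold change was -0.35.

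**Figure D3:**
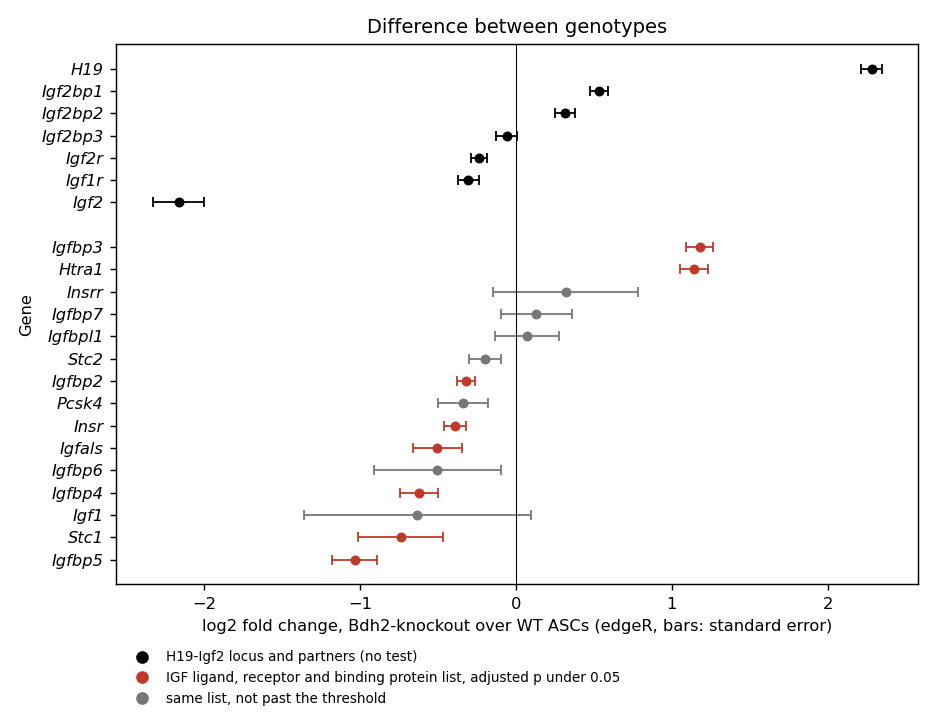
Log2 fold change of *Bdh2*-knockout over WT ASCs (edgeR, bars: SE) of the 7 measured genes of the locus and its partners (black, no test) and of the 15 tested IGF ligands, receptors and binding proteins (red: adjusted p under 0.05, grey: not past it). The black points run from *H19* at 2.28 to *Igf2* at -2.17, and *Igfbp3* at 1.18 and *Htra1* at 1.14 are the red points above 0.

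Downstream of the receptors, 41 genes of insulin and IGF receptor signalling were all testable. Of these, 18 (43.9%) rose and 6 (14.6%) fell, beside 21.0% and 20.8% over all tested genes. Their median log2 fold change was 0.15. *Grb10*, an imprinted adaptor that inhibits both receptors, rose from 49.1 ± 2.26 to 75.8 ± 3.46 CPM (SD, n = 3 each, log2 fold change 0.62 ± 0.06, adjusted p = 3.237e-06). *Gsk3b*, a kinase held back by AKT, rose by 0.48 ± 0.05 on the log2 scale, and *Sh2b2*, an adaptor of the insulin receptor, fell by 0.79 ± 0.15. Without knockout library 2, 11 genes rose, without knockout library 3, 3 fell, and 9 rose with the 3 libraries richest in hepatocyte transcripts left out.

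For the other function of IGF2R, the sorting of lysosomal enzymes, 16 genes were listed and tested. Of these, 6 (37.5%) rose and 1 (6.25%) fell, beside 21.0% and 20.8% over all tested genes. Their median log2 fold change was -0.03. *Nagpa*, the uncovering enzyme that exposes mannose 6-phosphate, went from 11.4 ± 0.30 to 23.8 ± 2.58 CPM (SD, n = 3 each, log2 fold change 1.07 ± 0.09, adjusted p = 1.403e-06). *Gnptab*, which starts that tag, had a log2 fold change of 0.23 and an adjusted p of 0.00959, and 0.0527 without knockout library 2. *Ap1b1* and *Ap1m1*, subunits of the AP-1 adaptor of clathrin coats, rose by 0.30 ± 0.06 and 0.32 ± 0.06. With the 3 libraries richest in hepatocyte transcripts left out *Ap1b1* was at 0.17, and *Ap1m1* at 0.18 with an adjusted p of 0.0665. The count of higher genes fell to 3 without knockout library 2 and to 3 without the 3 libraries richest in hepatocyte transcripts. The count of lower genes was 0 without WT library 1 or without any 1 knockout library, 2 without WT library 2 and 3 without WT library 3.

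Of the 3 mRNA-binding proteins, *Igf2bp1* (ENSMUSG00000013415, chr11:95957163-96005940, minus strand, up to 15 exons) was the most abundant. It was at 333, 342 and 377.5 CPM in WT libraries 1 to 3 and at 499.9, 527 and 495 CPM in knockout libraries 1 to 3. Every knockout library was above every WT library. The means were 351 ± 23.6 and 508 ± 17.3 CPM (SD, n = 3 each), with a log2 fold change of 0.53 ± 0.05 (SE).

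*Igf2bp2* (ENSMUSG00000033581, chr16:22059009-22163299, minus strand, up to 16 exons) was at 80.9, 82.3 and 96.4 CPM in WT libraries 1 to 3 and at 111 (replicate 1), 107 and 105 CPM in knockout libraries 1 to 3. The groups did not overlap, with WT library 3 nearest to the knockout libraries. The means were 86.5 ± 8.54 and 108 ± 3.33 CPM (SD, n = 3 each), with a log2 fold change of 0.31 ± 0.07 (SE). That value was 0.16 with the 3 libraries richest in hepatocyte transcripts left out, where WT library 3 is the sole WT library.

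*Igf2bp3* (ENSMUSG00000029814, chr6:49085223-49214957, minus strand, up to 15 exons) was at 61.9, 69.2 and 75.6 CPM in WT libraries 1 to 3 and at 65.4, 68.6 and 64.6 CPM in knockout libraries 1 to 3. The knockout libraries lay within the range of the WT libraries, so the groups overlapped. The log2 fold change was -0.06 ± 0.07 (SE), and it was 0.02 without WT library 3. Of its exon bases 18.7% are also exons of the antisense gene *Malsu1*.

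The make-up of the family could be compared per length within each library. *Igf2bp1* contributed 65.0%, 64.3% and 63.6% of the summed FPKM of the 3 genes in WT libraries 1 to 3 and 69.1%, 70.4% and 69.9% in knockout libraries 1 to 3. *Igf2bp3* contributed 14.4% to 15.4% in WT and 10.7% to 10.9% in knockout libraries, without overlap, whereas the shares of *Igf2bp2*, 20.2% to 21.2% and 18.8% to 20.1%, came close without overlapping. The summed level was 56.4 ± 4.37 FPKM in WT ASCs and 75.1 ± 2.11 FPKM in *Bdh2*-knockout ASCs (SD, n = 3 each).

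**Figure D4:**
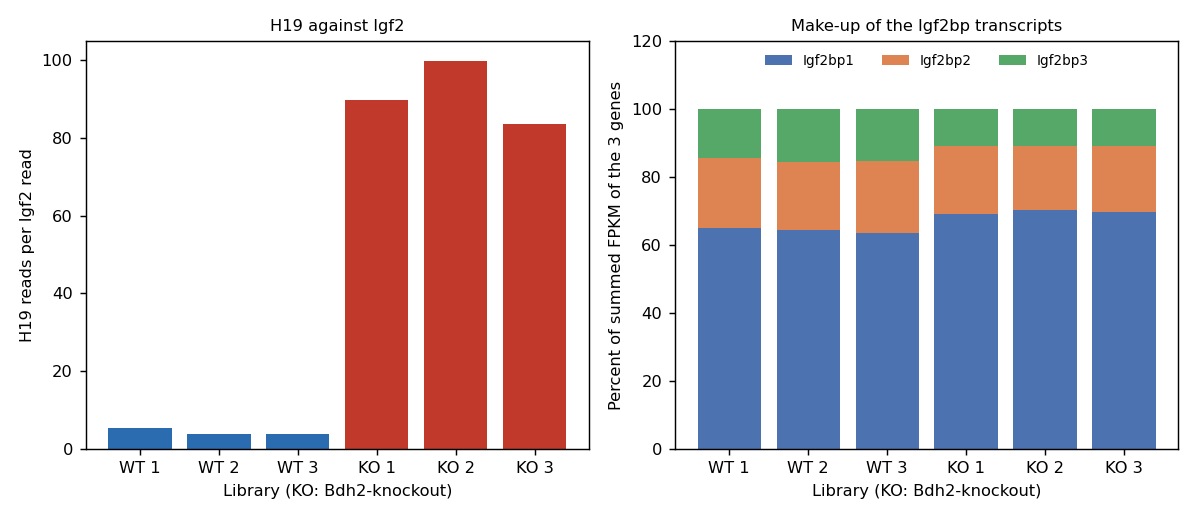
Left, *H19* reads per *Igf2* read in each library, which are 3.69 to 5.26 in WT ASCs and 83.6 to 99.9 in *Bdh2*-knockout ASCs (KO). Right, the percent of the summed FPKM of *Igf2bp1*, *Igf2bp2* and *Igf2bp3* that each gene contributes in each library, with the *Igf2bp1* share at 63.6% to 65.0% in WT and 69.1% to 70.4% in knockout libraries.

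The IGF2BP mRNAs are known targets of the let-7 microRNAs, whose maturation is blocked by LIN28. The letters CTACCTC, the complement of the let-7 seed, were searched on the sense strand of the longest coding transcript of each gene in GENCODE M21 (or the longest transcript of a gene without one). *Igf2bp1* held 4 matches, all in the 3′ UTR, *Igf1r* held 2 in the coding sequence and 2 in the 3′ UTR, *Igf2* and *Igf2r* held 2, *Igf2bp2* and *Igf2bp3* held 1, and *H19* held 0. Of 16524 tested genes with a transcript 22.1% held at least 1 match, and 0.218% held 4 or more. These shares cover whole transcripts of all lengths, with no match for length or region. The transcripts with 4 matches are long, at 8378 bases for *Igf2bp1* and 11409 for *Igf1r*. The matches of the *Igf2bp* family all lie in the 3′ UTR and are shown, with the match in capitals, next to let-7a (RefSeq) with its seed in capitals.
let-7a-5p: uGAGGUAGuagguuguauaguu
Igf2bp1-201, bases 3741 to 3762: gctgtgcgaagtaaaCTACCTC
Igf2bp1-201, bases 6162 to 6183: cagcagtgctattaaCTACCTC
Igf2bp1-201, bases 6756 to 6777: gtataaatggatgaaCTACCTC
Igf2bp1-201, bases 7379 to 7400: acttttggttttaatCTACCTC
Igf2bp2-201, bases 3413 to 3434: acacacaaataaaagCTACCTC
Igf2bp3-201, bases 2759 to 2780: tgcatttttactcaaCTACCTC
Of 14 genes of the let-7 and LIN28 pathway, all tested, 6 (42.9%) rose and 2 (14.3%) fell, with a median log2 fold change of 0.13. Over all tested genes 21.0% rose and 20.8% fell. *Lin28a* rose from 453 ± 29.0 to 564 ± 24.1 CPM (SD, n = 3 each, log2 fold change 0.32 ± 0.05, adjusted p = 5.489e-04). The microprocessor genes *Dgcr8* and *Drosha* rose by 0.53 ± 0.06 and 0.28 ± 0.06 on the log2 scale, and the exportin gene *Xpo5* by 0.23 ± 0.05. With the 3 libraries richest in hepatocyte transcripts left out *Lin28a* was at 0.18 and *Drosha* at 0.14. Without WT library 3 or without any 1 knockout library 0 genes of this list fell, and without WT library 2, 1 fell.

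The proteins that share ribonucleoprotein particles with the IGF2BPs formed a list of 12, all tested. Of these, 4 (33.3%) rose and 0 fell, with a median log2 fold change of 0.07. Over all tested genes 21.0% rose and 20.8% fell. DESeq2 and limma-voom called 0 lower as well, and at an unadjusted p under 0.05 in edgeR the count of lower genes was also 0. The helicase gene *Dhx9* rose from 533 ± 17.2 to 747.5 ± 10.2 CPM (SD, n = 3 each, log2 fold change 0.49 ± 0.04, adjusted p = 3.635e-06), and *Fubp3*, *Syncrip* and *Hnrnpu* rose by 0.32 ± 0.05, 0.18 ± 0.05 and 0.14 ± 0.04. The adjusted p of *Hnrnpu* was 0.0934 with library totals in place of TMM (log2 fold change 0.09) and 0.115 with the hepatocyte score as a covariate, where that of *Syncrip* was 0.0654. Without WT library 3, 7 genes of this list rose and 1 fell. Of 12 mRNAs known to be bound by IGF2BPs, all tested, 8 rose and 1 fell, with a median log2 fold change of 0.23, and 5 rose with the 3 libraries richest in hepatocyte transcripts left out. *Myc*, whose mRNA IGF2BP1 protects from decay, rose from 36.3 ± 4.35 to 66.7 ± 4.63 CPM (log2 fold change 0.87 ± 0.08, adjusted p = 3.124e-06). *Abcb1a*, a drug transporter gene, rose by 0.34 ± 0.08. *Ptgs2*, or cyclooxygenase 2, had a log2 fold change of 0.53 and an adjusted p of 0.0121, and 0.0614 without knockout library 3 or 0.0579 with the hepatocyte score. *Mapt*, or tau, had one of 0.30 and an adjusted p of 0.0211, which was 0.0536 to 0.0806 without WT library 1 or 3 or knockout library 1 or 3, 0.0522 with library totals and 0.0941 with the hepatocyte score. The count of lower genes was 2 without WT library 1.

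Between genes, levels were ordered per length in FPKM. In WT ASCs *Igf2bp1* was highest at 36.2 ± 2.43 FPKM, followed by *H19* at 23.0 ± 2.26, *Igf2r* at 21.0 ± 0.79, *Igf2bp2* at 11.7 ± 1.15, *Igf2bp3* at 8.44 ± 0.84, *Igf2* at 2.38 ± 0.53 and *Igf1r* at 2.17 ± 0.20 FPKM (SD, n = 3). The ranges of *H19* and *Igf2r* overlapped, as did those of *Igf2* and *Igf1r*, and all other neighbours in the order were apart. Over the exon bases that no other gene shares the order was the same, but there *H19* and *Igf2r* were apart, as were *Igf2* and *Igf1r*, whereas *Igf2bp2* (10.9 to 13.0 FPKM) and *Igf2bp3* (9.34 to 11.4 FPKM) overlapped. In *Bdh2*-knockout ASCs *H19* came first at 112 ± 5.19 FPKM, then *Igf2bp1* at 52.4 ± 1.78, *Igf2r* at 17.8 ± 0.49, *Igf2bp2* at 14.6 ± 0.45, *Igf2bp3* at 8.11 ± 0.26, *Igf1r* at 1.75 ± 0.04 and *Igf2* at 0.531 ± 0.055 FPKM (SD, n = 3). No neighbours overlapped there. *H19* and *Igf2bp1* exchanged the highest ranks between genotypes, and *Igf2* and *Igf1r* the lowest above *Ins2*.

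Over the members, 3 were higher without overlap between the genotypes (*H19*, *Igf2bp1*, *Igf2bp2*), 3 were lower without overlap (*Igf2*, *Igf2r*, *Igf1r*) and 1 overlapped (*Igf2bp3*). Groups did not overlap for 52.4% of all tested genes, and since the members were picked on this contrast nothing is read from their count. Over the whole table the share of called genes that rose was 50.3%, and 38.0% with library totals in place of TMM scaling, where the 7 measured members kept their signs.

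For *H19*, *Igf2*, *Igf2r* and *Igf2bp2*, the members chosen for it, the genes with the most similar pattern were those with the highest Pearson correlation of log2 CPM over the 6 libraries among 14336 genes with a mean of at least 1 CPM. These correlations mostly follow the step between genotypes, and the points share their libraries. For *H19* they were *Clta*, *Rbm34*, *Cited1*, *N6amt1* and *Mras* (r from 0.999 to 0.9998), of which *Mras* had the largest log2 fold change at 1.54. For *Igf2* they were *Pacsin3*, *Kif21b*, *Man2b2*, *Sft2d2* and *Flot1* (r from 0.9967 to 0.998), with log2 fold changes between -0.42 and -1.12. For *Igf2r* they were *Wbp1*, *Acacb*, *Fam129a*, *Gm38248* and *Pecr* (r from 0.997 to 0.9982), and for *Igf2bp2* *Eif4a3*, *Pbrm1*, *Fbxo21*, *Dgkb* and *Ufc1* (r from 0.9955 to 0.9987). None of these 20 genes is a member of the lists used here.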

How the data were processed

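RNA of WT ASCs and *Bdh2*-knockout ASCs, 3 libraries each, was prepared with an Illumina TruSeq kit and sequenced. The authors mapped reads to GRCm38 with HISAT2 2.0.5 and deposited raw counts per gene made with FeatureCounts. The annotation release, the strand setting and the treatment of reads on overlapping genes are not given in the sources used here. Coordinates and exons came from GENCODE M21, which holds 99.4% of the gene identifiers, and 98.3% of these at the same position.

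Counts were fitted here in R 4.3.3 with edgeR 4.0.16 (TMM, filterByExpr, glmQLFTest, genotype as the factor, Benjamini-Hochberg adjustment over 16758 genes, threshold 0.05), after checks on simulated counts. DESeq2 1.42.0 and limma 3.58.1 were alternatives. FPKM was computed as CPM per kilobase of listed length. Tables used Python 3.11.15, pandas 2.3.3 and matplotlib 3.10.9. A count of 0 was read as at most 3 counts.

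The members and lists were chosen with earlier results of these data known. The members were selected on this contrast and carry no p. Genes of the lists have p-values adjusted over all tested genes, and their counts are descriptions, not independent support. Named were the members, *Bdh2*, every IGF list gene, up to 4 called genes per other list (all where at most 5 were called), called neighbours, and the 5 genes most like *H19*, *Igf2*, *Igf2r* and *Igf2bp2*, the members for which likeness was computed. A gene that this rule names is not reported here.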

Additional observations from a re-analysis of the deposited data

How the results depend on the processing

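The log2 fold changes of the 7 measured members kept their sign under all 15 alternatives, except that of *Igf2bp3*. With 1 library left out in turn they ranged from 2.23 to 2.36 for *H19*, -2.33 to -2.02 for *Igf2*, -0.27 to -0.21 for *Igf2r*, -0.37 to -0.25 for *Igf1r*, 0.50 to 0.59 for *Igf2bp1*, 0.27 to 0.40 for *Igf2bp2* and -0.13 to 0.02 for *Igf2bp3*. With the 3 libraries highest in hepatocyte transcripts left out, an alternative chosen after seeing the data that leaves 1 WT library, they were 2.40 for *H19*, 0.40 for *Igf2bp1*, 0.16 for *Igf2bp2* and -0.22 for *Igf2bp3*, and library totals without TMM gave -0.29 for *Igf2r*. The cause was not tested.

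Calls over the whole table stayed within 1.5 times of 3518 higher and 3478 lower genes. Those in the 10 lists, 61 higher and 32 lower, ranged from 49 to 73 and from 21 to 32 with 1 library left out, lowest without knockout library 1 for lower genes. Neighbours called numbered 3 higher and 9 lower, with 3 to 4 and 6 to 10 when 1 library was left out. Without a filter on low counts 7 were higher, since more genes were tested, and with the 3 libraries left out 5 were higher. The order of mean levels was the same on every scale tried, though which neighbours overlapped changed over unshared exon bases.

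The replicate numbers did not pair the samples, with correlations of same-numbered deviations of -0.154, 0.0995 and 0.245. With a replicate block 3235 genes were higher and 3217 lower, *H19* and *Igf2* had log2 fold changes of 2.28 and -2.14, and the adjusted p was above 0.05 for *Ascl2* (0.0612), *Hnrnpu* (0.0506) and *AL589878.1* (0.0636) and for no other gene called and named here.

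Genes not past the threshold in edgeR that changed sign were *Igf1* (0.88 by limma-voom, 1.16 with the hepatocyte score as a covariate), *Insrr* (-0.037 to 0.61 with 1 library left out), *Igfbp7* (-0.029 to 0.32) and *Igfbpl1* (-0.097 to 0.22, and -0.30 with the 3 libraries left out). With the 3 libraries left out *Igf1* passed at 6.32 (adjusted p = 0.0141), but the sole WT library then has 0 counts of it, so this fitted value is no measured fold.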

Other observations

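Other imprinted growth genes, many of them described as a co-expressed network with *H19* and *Igf2*, were listed too. Of 17 listed genes 15 could be tested. Of these, 7 (46.7%) rose and 4 (26.7%) fell, beside 21.0% and 20.8% over all tested genes. Their median log2 fold change was 0.15. *Mest*, a paternally expressed growth gene, rose from 49.8 ± 4.33 to 130.7 ± 3.79 CPM (SD, n = 3 each, log2 fold change 1.39 ± 0.06, adjusted p = 1.297e-08, edgeR). *Peg10*, a paternally expressed gene of retrotransposon origin, rose from 727 ± 42.8 to 1438 ± 28.2 CPM, and *Dlk1*, a paternally expressed Notch-like ligand, from 2.91 ± 0.05 to 6.08 ± 0.97 CPM. *Slc38a4*, a paternally expressed amino acid transporter, fell from 61.9 ± 7.58 to 26.7 ± 0.82 CPM (log2 fold change -1.21 ± 0.08, adjusted p = 2.17e-07). Without WT library 2 or without knockout library 2, 2 genes of this list fell.

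Of 24 factors that set or keep imprints, all tested, 12 rose and 2 fell, with a median log2 fold change of 0.19. *Dnmt3l*, the cofactor of the de novo DNA methyltransferases, rose from 462 ± 17.8 to 844 ± 17.8 CPM (SD, n = 3 each, log2 fold change 0.87 ± 0.05, adjusted p = 3.838e-08), and *Dnmt3b*, one of those enzymes, from 252 ± 15.5 to 378 ± 15.2 CPM. By RT-qPCR the paper reports the other direction, with *Dnmt3a*, *Dnmt3b* and *Dnmt3l* lower in the knockout cells. For protein it reports less DNMT3A, DNMT3B and DNMT1 and a similar amount of DNMT3L. The cause of this difference was not tested. *Plagl1*, an imprinted transcription factor known to act on the *Igf2*-*H19* locus, rose by 0.56 ± 0.06 and *Trim28*, the corepressor recruited by ZFP57 at imprinting control regions, by 0.50 ± 0.06 on the log2 scale. Without knockout library 1 or without knockout library 3, 1 gene of this list fell. DNA methylation at the locus was not measured in these files.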
